A study of Mus musculus with 36 samples.

Results

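Expression of the bone morphogenetic protein (BMP) pathway and of its Id target genes was followed through 10 of the 55401 genes counted, in mouse embryonic stem cells (ESCs) and epiblast-like cells (EpiLCs) with and without subunits of Polycomb repressive complexes. The genes were chosen by symbol as a ligand-to-target set: the ligands Bmp4 and Bmp7, the type I receptor Bmpr1a, the receptor-regulated SMADs Smad1 and Smad5, the inhibitory SMAD Smad6, and Id1, Id2, Id3 and Id4. All 10 symbols matched an identifier in the GRCm38 annotation. RNA-seq covered 36 libraries in 12 groups of 3.

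J2KO cells lack JARID2, an accessory subunit of the PRC2.2 form of Polycomb repressive complex 2, and J2WT is their matched wild-type line. QKO cells lack JARID2 and also PHF1, MTF2 and PHF19, the Polycomb-like accessory subunits of the PRC2.1 form, TKO cells lack the Polycomb-like proteins alone, and PclWT is the matched wild-type line of both, so that the QKO and TKO comparisons share their controls. These 5 lines were measured as EpiLCs and as ESCs. Pcgf2/4 KO cells, which lack the PCGF2 and PCGF4 subunits of canonical PRC1, and their WT control were measured as EpiLCs. The labels give C57BL/6 for every sample, and each group is a single line. ESCs grew in 20% fetal bovine serum with LIF, 3 µM of the GSK3 inhibitor CHIRON99021 and 1 µM of the MEK inhibitor PD0325901. EpiLCs were collected after 2 days on fibronectin in NDiff227 medium with 20 ng/mL activin A, 12 ng/mL bFGF and 1% Knockout Serum Replacement. Cell stage and medium therefore changed together and cannot be told apart. Whether replicate libraries were separate cultures is not stated, and p-values therefore measure a spread that may be technical only.

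BMP ligands bind a complex of type I and type II receptors, and the activated type I receptor phosphorylates SMAD1, SMAD5 and SMAD9, which enter the nucleus with SMAD4. The Id genes are among the most direct targets of that signal and encode helix-loop-helix proteins without a DNA-binding region, which hold E proteins such as TCF3 away from DNA. In mouse ESCs, BMP4 and Id proteins are known to help keep cells undifferentiated alongside LIF, and SMAD6, itself a BMP target, restrains the pathway.

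The promoters of the genes on which the results turn are shown as the reference holds them. These are Id3 and Id4, lower by over 2-fold in EpiLCs of all 5 lines, and Id2, which was so in 2 of them. The others are the ligand gene Bmp4, and Smad6 for a SMAD motif at its start site. RefSeq promoters of GRCm38.p6 were found for 8 of the 10 genes, and Bmp7 and Id1 had no entry. Each sequence runs 5′ to 3′ on the gene's strand from 250 bases before the RefSeq start site to 30 bases after it. Capitals mark 4 motifs searched on both strands, none of which overlapped another here: the GC-rich SMAD element GGCGCC, the palindromic SMAD box GTCTAGAC, the CCAAT box with its reverse ATTGG, and the TATA box TATAAA.
Id2, minus strand of chr12:25096063-25096342: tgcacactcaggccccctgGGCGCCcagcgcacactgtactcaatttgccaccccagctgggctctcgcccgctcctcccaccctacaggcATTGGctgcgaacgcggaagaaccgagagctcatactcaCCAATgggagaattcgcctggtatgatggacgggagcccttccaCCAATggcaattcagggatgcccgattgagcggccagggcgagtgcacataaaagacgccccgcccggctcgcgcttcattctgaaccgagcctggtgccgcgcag
Id3, plus strand of chr4:136143572-136143851: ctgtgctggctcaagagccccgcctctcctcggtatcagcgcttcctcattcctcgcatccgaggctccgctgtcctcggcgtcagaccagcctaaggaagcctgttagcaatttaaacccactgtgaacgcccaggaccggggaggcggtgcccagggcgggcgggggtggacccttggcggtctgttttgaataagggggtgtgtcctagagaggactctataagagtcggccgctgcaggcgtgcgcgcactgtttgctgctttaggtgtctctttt
Id4, plus strand of chr13:48260866-48261145: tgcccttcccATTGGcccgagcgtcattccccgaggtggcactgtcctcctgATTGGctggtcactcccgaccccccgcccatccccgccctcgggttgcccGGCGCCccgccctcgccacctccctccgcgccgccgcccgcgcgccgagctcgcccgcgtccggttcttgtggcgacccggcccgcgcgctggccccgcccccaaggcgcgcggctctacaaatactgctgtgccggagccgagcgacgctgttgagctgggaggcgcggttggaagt
Bmp4, minus strand of chr14:46390640-46390919: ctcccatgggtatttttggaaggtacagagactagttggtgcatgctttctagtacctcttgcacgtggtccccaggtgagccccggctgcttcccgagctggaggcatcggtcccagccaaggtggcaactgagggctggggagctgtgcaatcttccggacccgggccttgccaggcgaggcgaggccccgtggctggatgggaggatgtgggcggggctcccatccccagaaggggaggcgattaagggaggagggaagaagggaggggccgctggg
Smad6, minus strand of chr9:64022030-64022309: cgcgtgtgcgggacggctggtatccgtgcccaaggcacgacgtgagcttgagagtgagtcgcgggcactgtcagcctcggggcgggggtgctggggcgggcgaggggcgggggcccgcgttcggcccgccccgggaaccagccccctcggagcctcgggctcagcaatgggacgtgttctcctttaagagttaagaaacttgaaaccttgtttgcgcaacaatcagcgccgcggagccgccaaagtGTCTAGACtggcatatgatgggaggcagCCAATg
The Id2 window held GGCGCC once, 231 bases before the start site, and CCAAT 3 times, 159, 120 and 76 bases before it. Id4 held GGCGCC 148 bases and CCAAT 240 and 198 bases before its start. Neither Id3 nor Bmp4 held any of the 4 motifs. The SMAD box of Smad6 began 4 bases before the start site, and its CCAAT box lay 24 bases after the start. Of 32851 RefSeq promoters of this length, 10.95% held GGCGCC, 0.19% GTCTAGAC, 36.09% CCAAT and 13.1% TATAAA. The windows also differed in CpG dinucleotides, with 38 in Id4, 27 in Smad6, 21 in Id2, 19 in Id3 and 12 in Bmp4, against a median of 6 over all promoters. A match describes the sequence only and is not a site of binding.

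Each library held 6784578 to 18026492 reads in genes, with a median of 10472704. Levels are the reads of a gene scaled to the size of its library (CPM), with TMM factors over the 36 libraries. PclWT EpiLC replicate 1 stood apart: 1756 and 1978 of 13365 genes differed over 2-fold from replicates 2 and 3, against at most 245 for any other pair of replicates. In QKO EpiLC replicate 2 far fewer genes differed over 2-fold (156 from each of the others), but the chi-square per degree of freedom of its counts was 28.8 and 33.6 against replicates 1 and 3, and 1.98 between those, and 30.2% of its reads lay outside a single gene, the most of any library. Mtf2 was at 36.7 to 44.3 CPM in the QKO and TKO groups, against 223 CPM in PclWT EpiLCs and 419 CPM in PclWT ESCs. Phf1 was at 0.123 to 0.595 CPM in these groups, against 7.80 CPM in PclWT EpiLCs and 8.06 CPM in PclWT ESCs. Phf19 was at 0.48 to 0.99 CPM in QKO and 1.25 to 2.43 CPM in TKO, against 3.04 CPM in PclWT EpiLCs and 1.67 CPM in PclWT ESCs. TKO libraries overlapped those of PclWT for Phf19 in EpiLCs (2.16 to 2.85 against 2.84 to 3.4 CPM) and ESCs (0.869 to 1.51 against 1.5 to 1.94 CPM). Its loss in TKO is therefore not checked by these counts. Counts over whole genes did not show the deletions of Jarid2, Pcgf2 and Bmi1, which encodes PCGF4 (Jarid2 508 CPM in J2KO EpiLCs and 769 CPM in J2WT EpiLCs; Pcgf2 64.6 CPM in Pcgf2/4 KO EpiLCs and 59 CPM in WT EpiLCs; Bmi1 23 CPM in Pcgf2/4 KO EpiLCs and 21.9 CPM in WT EpiLCs), and they do not check those labels. All 7 naive pluripotency markers were called lower in EpiLCs of every line, where their summed level was 225.4 to 1302 CPM in EpiLC libraries against 3402 to 5715 CPM in ESC libraries, and 5 formative markers summed to 904.5 to 4792 CPM in EpiLC libraries against 155.3 to 331 CPM in ESC libraries. In bulk RNA, fewer cells of a type and less RNA per cell cannot be told apart.

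Levels between genes were set against each other per exon length (RPKM). Bmpr1a was first of the 10 genes in all 12 groups, at 13.1 to 25.6 RPKM, and Smad5 was second in 7 groups. Id1 reached 1.91 to 12.6 RPKM in ESC libraries, with Id3 at 4.35 to 14.3 RPKM, Bmp4 at 1.15 to 14.1 RPKM, Id4 at 1.48 to 7.12 RPKM and Id2 at 0.592 to 4.3 RPKM. In EpiLC libraries the same genes were at 0.098 to 3.34 RPKM for Id1, 0.323 to 2.31 RPKM for Id3, 0.708 to 5.16 RPKM for Bmp4, 0.091 to 0.848 RPKM for Id4 and 0.407 to 2.65 RPKM for Id2. Smad1, at 2.35 to 5.46 RPKM over all libraries, and Smad6, at 2.27 to 7.61 RPKM, lay within the range of the Id genes in ESC libraries. The receptor and the SMADs were thus read at both stages, while the Id genes in EpiLCs rested on few reads.

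**Figure D1:**
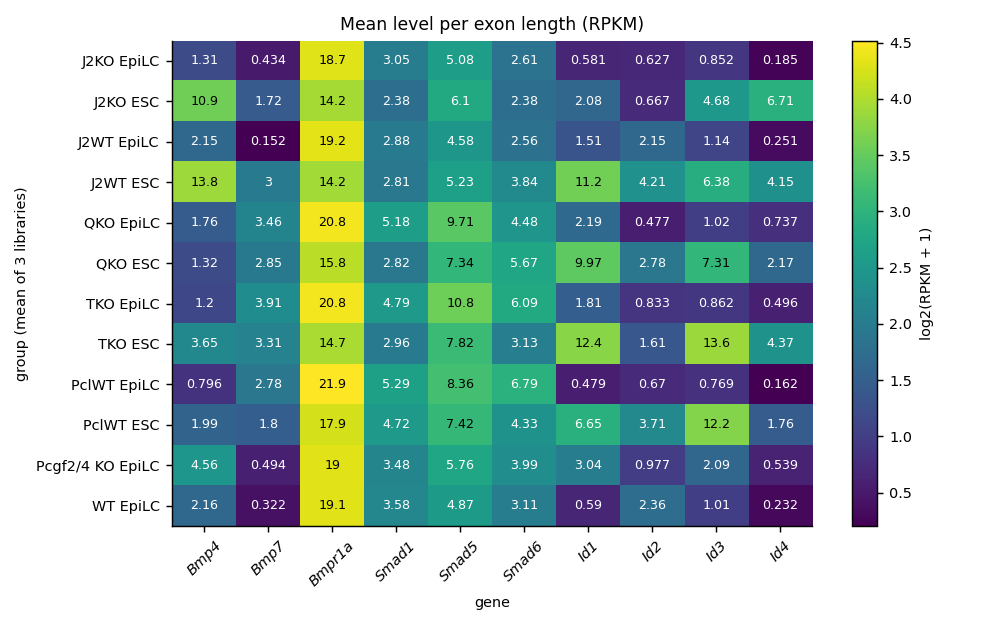
Mean RPKM of the 10 genes (columns) in the 12 groups (rows, mean of 3 libraries), with the value printed in each cell and the colour on a log2(RPKM + 1) scale. Bmpr1a was the highest of the 10 in every group, and Id4 was at 0.162 to 0.737 RPKM in the EpiLC groups.

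The first question was how the pathway moved between stages in wild-type cells. Id1, Id3 and Id4 were lower in EpiLCs of both wild-type lines, by 5.38-fold to 16.5-fold, and so was Bmp4. Bmp7 was 18.9-fold lower in J2WT EpiLCs but not lower in PclWT EpiLCs. The receptor Bmpr1a and the signal-carrying SMADs moved by less than 1.5-fold in either line. A gene was called when edgeR's quasi-likelihood test gave a Benjamini-Hochberg adjusted p under 0.05 over all genes tested and the fold change was over 2. It passed when the p alone was under 0.05. In J2WT, 5 of the 10 genes were called lower and none higher, where 14.8% of the 13877 genes tested were called lower and 15.4% higher. In PclWT, 5 of 10 were called lower and none higher, where 6.20% of 12768 genes tested were called lower and 9.19% higher. Genes entered a test at a mean normalized count of 15 or more over both groups, and in PclWT the 4 Id genes, at 1 to 20 reads per EpiLC library, reached it through their ESC libraries, as did Bmp7 in J2WT, at 7 to 13 reads per EpiLC library. A gene that enters a test through the group where it is high had to differ, and the counts of members called are descriptions.

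Bmp4 (ENSMUSG00000021835, chr14:46383520-46390669), a ligand that ESCs make themselves, was at 5.0, 5.34 and 4.85 CPM in J2WT EpiLCs against 32.8, 31.3 and 31.8 CPM in J2WT ESCs. The log2 fold change was -2.63 ± 0.08 (SE; adjusted p = 6.31e-19). In PclWT it was at 1.64, 1.74 and 1.40 CPM in EpiLCs against 5.91, 3.10 and 3.56 CPM in ESCs, a log2 fold change of -1.39 ± 0.31 (adjusted p = 0.0161). No library of the stages overlapped in either line, although PclWT ESCs started from far less Bmp4 than J2WT ESCs. Without PclWT EpiLC replicate 3 the PclWT change no longer passed (-1.30, adjusted p = 0.0547).

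Bmp7 (ENSMUSG00000008999, chr2:172868012-172940321), a second ligand of the same receptors, was at 0.670, 0.429 and 0.830 CPM in J2WT EpiLCs against 14.1, 10.6 and 12.5 CPM in J2WT ESCs, a log2 fold change of -4.24 ± 0.19 (adjusted p = 9.72e-16). PclWT cells went the other way, with 8.86, 10.2 and 10.7 CPM in EpiLCs against 7.37, 6.10 and 6.90 CPM in ESCs. That rise was 0.56 ± 0.15 on the log2 scale (adjusted p = 0.0299). It missed the threshold with the replicate number as a block (0.56, adjusted p = 0.0588) and without PclWT EpiLC replicate 2 or 3 or any single PclWT ESC library (0.48 to 0.63, adjusted p = 0.0713 to 0.128). The libraries of both lines were clear of each other by stage, in opposite order.

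Bmpr1a (ENSMUSG00000021796, chr14:34410734-34503341), a type I receptor for BMP2 and BMP4, was at 127, 127 and 129 CPM in J2WT EpiLCs against 97.0, 95.9 and 86.0 CPM in J2WT ESCs, a log2 fold change of 0.48 ± 0.04 (adjusted p = 5.41e-10). PclWT EpiLCs had 90.5, 137 and 143 CPM against 104, 109 and 107 CPM in PclWT ESCs, where the lowest EpiLC value was replicate 1. The log2 fold change of 0.23 ± 0.18 did not pass (adjusted p = 0.406), and without that library it was 0.41 (adjusted p = 1.32e-05).

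Of the SMADs, Smad1 (ENSMUSG00000031681, chr8:79338395-79399518), which carries the BMP signal, averaged 19 ± 0.24 CPM in J2WT EpiLCs and 18.1 ± 0.36 CPM in J2WT ESCs (SD, n = 3 each; log2 fold change 0.09, adjusted p = 0.251). Smad5 (ENSMUSG00000021540, chr13:56703010-56742377), its partner in that role, averaged 35.7 ± 1.54 CPM in J2WT EpiLCs and 40.0 ± 1.92 CPM in J2WT ESCs. Its log2 fold change of -0.14 passed (adjusted p = 0.0235) but not without J2WT EpiLC replicate 2 or 3 or J2WT ESC replicate 1 (-0.13 to -0.099, adjusted p = 0.0688 to 0.153) or with DESeq2 (adjusted p = 0.078). Neither passed in PclWT (Smad1 0.11, adjusted p = 0.515; Smad5 0.11, adjusted p = 0.682), although Smad5 passed without PclWT EpiLC replicate 1 (0.29, adjusted p = 0.00305). Smad6 (ENSMUSG00000036867, chr9:63953076-64022059), the brake, was at 7.80, 8.16 and 9.83 CPM in J2WT EpiLCs against 12.6, 14.0 and 11.5 CPM in J2WT ESCs (log2 fold change -0.54, adjusted p = 4.76e-05). In PclWT it was higher, at 22.1, 19.8 and 16.4 CPM in EpiLCs against 12.8, 13.3 and 12.9 CPM in ESCs (0.59, adjusted p = 0.0199), which did not pass without PclWT EpiLC replicate 2 or any single PclWT ESC library (0.58 to 0.60, adjusted p = 0.0626 to 0.0845).

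**Figure D2:**
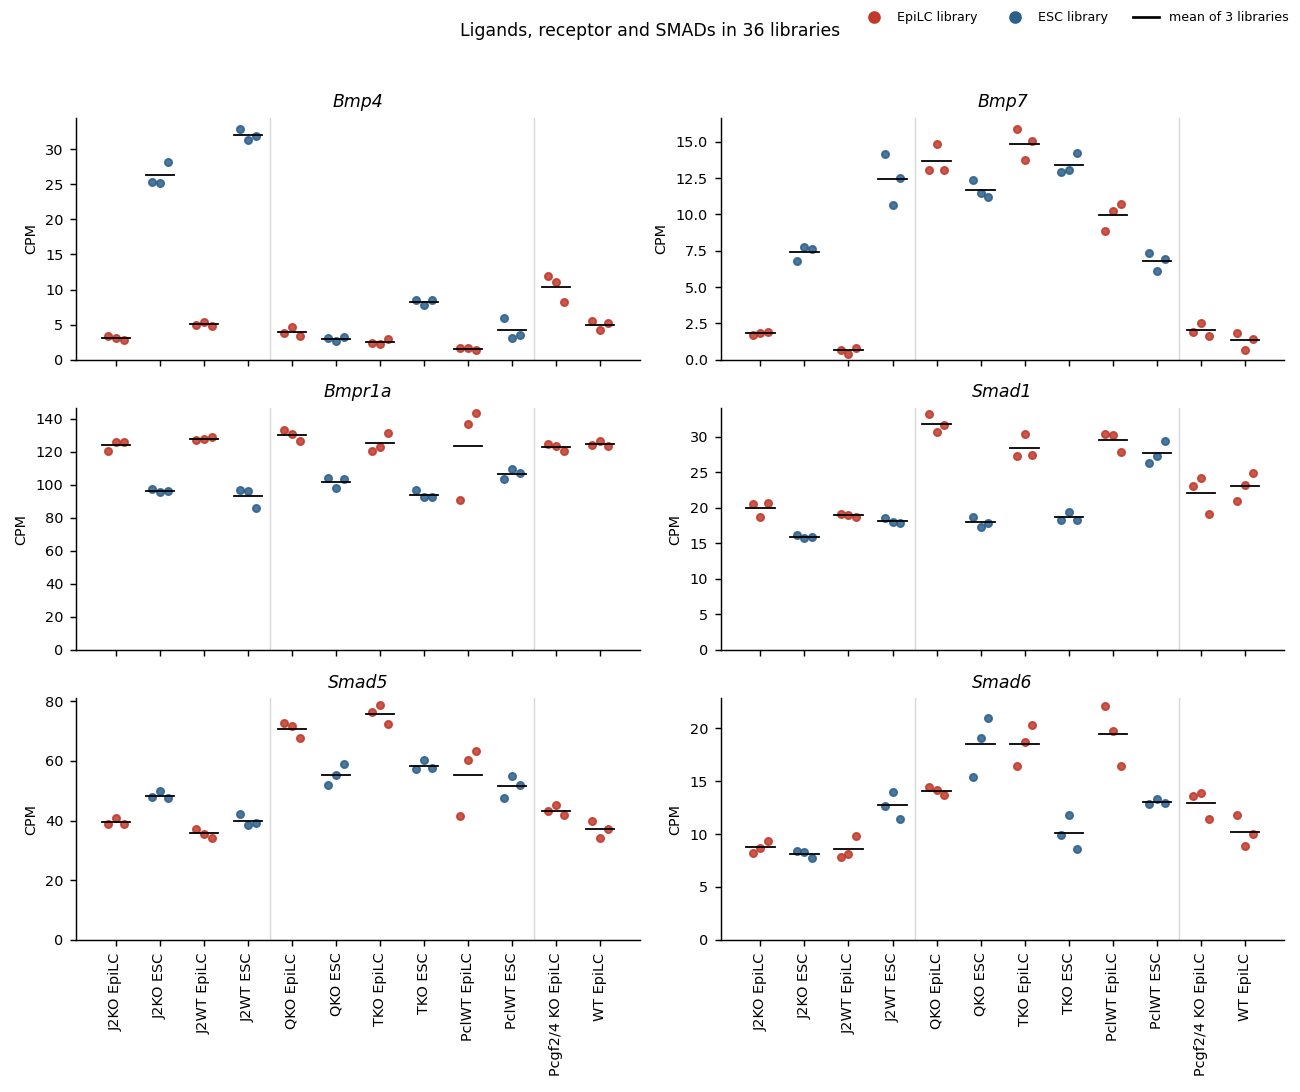
CPM of Bmp4, Bmp7, Bmpr1a, Smad1, Smad5 and Smad6 (linear axes from 0) in each library by group, with EpiLC libraries in red, ESC libraries in blue and the mean of 3 as a bar. Bmp7 was at 0.429 to 0.830 CPM in J2WT EpiLCs and at 8.86 to 15.8 CPM in PclWT, TKO and QKO EpiLCs.

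Id1 (ENSMUSG00000042745, chr2:152736251-152737410), the most used readout of BMP signalling, was at 2.01, 1.66 and 1.85 CPM in J2WT EpiLCs against 11.8, 14.0 and 14.3 CPM in J2WT ESCs, a log2 fold change of -2.83 ± 0.14 (adjusted p = 3.99e-15). In PclWT the values were 1.09, 0.307 and 0.1 CPM in EpiLCs, from 10, 3 and 1 reads, against 9.31, 5.78 and 6.57 CPM in ESCs. Every ESC library was above every EpiLC library. The log2 fold change of -3.85 ± 0.53 (adjusted p = 0.00216) was -5.06 without PclWT EpiLC replicate 1, the library with the most Id1 reads of its group.

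Id3 (ENSMUSG00000007872, chr4:136143497-136145755), which acts with Id1 in many tissues, was at 1.71, 2.76 and 1.98 CPM in J2WT EpiLCs against 11.2, 11.9 and 12.2 CPM in J2WT ESCs (log2 fold change -2.43 ± 0.14, adjusted p = 9.43e-14). PclWT EpiLCs had 2.19, 0.512 and 1.00 CPM against 22.0, 20.4 and 19.0 CPM in PclWT ESCs (-4.05 ± 0.37, adjusted p = 0.00037). PclWT ESCs thus had more Id3 than J2WT ESCs but about as little in EpiLCs. Without PclWT EpiLC replicate 1 the PclWT change was -4.72 on the log2 scale.

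Id4 (ENSMUSG00000021379, chr13:48261228-48266026), the member of the family best known from the nervous system, was at 0.609, 1.41 and 1.02 CPM in J2WT EpiLCs against 17.1, 15.5 and 16.9 CPM in J2WT ESCs (log2 fold change -3.99 ± 0.16, adjusted p = 5.99e-17). In PclWT it was at 0.656, 0.409 and 0.601 CPM in EpiLCs against 5.33, 7.06 and 6.68 CPM in ESCs (-3.47 ± 0.25, adjusted p = 0.000174). Both lines reached a like level in EpiLCs from unlike levels in ESCs.

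Id2 (ENSMUSG00000020644, chr12:25093799-25097140), which is also under control of other pathways, was the exception in that it was called lower in PclWT alone. It was at 6.76, 4.97 and 4.79 CPM in J2WT EpiLCs against 10.8, 10.2 and 10.8 CPM in J2WT ESCs, a change of -0.92 ± 0.12 on the log2 scale that passed without reaching 2-fold (adjusted p = 1.96e-07). In PclWT EpiLCs it was at 1.64, 1.23 and 1.5 CPM against 9.79, 7.70 and 7.90 CPM in PclWT ESCs, and was called lower (-2.52 ± 0.20, adjusted p = 0.000254). The WT EpiLCs of the Pcgf2/4 set, at 5.27, 6.45 and 6.00 CPM, lay in the range of J2WT EpiLCs.

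**Figure D3:**
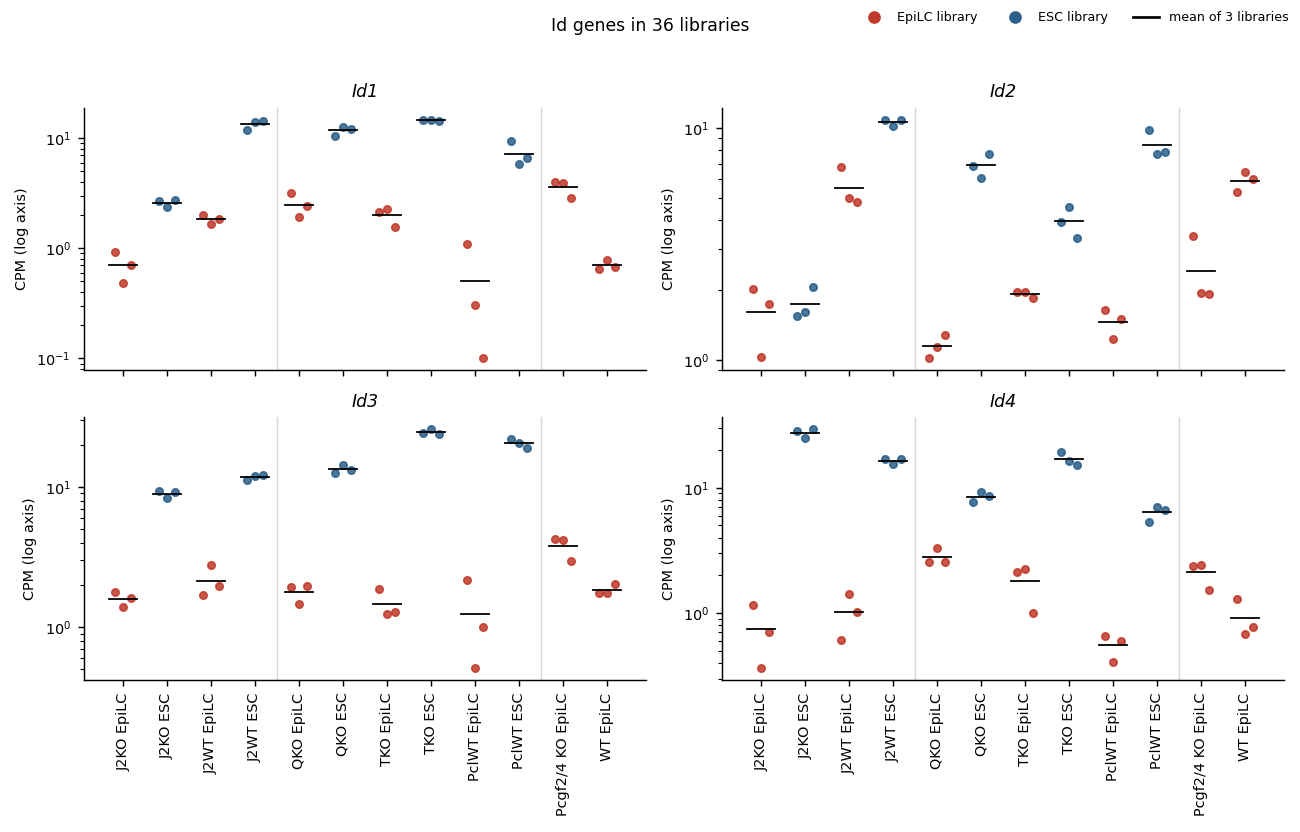
CPM of Id1, Id2, Id3 and Id4 (log axes) in each library by group, with EpiLC libraries in red, ESC libraries in blue and the mean of 3 as a bar. Id3 and Id4 were higher in every ESC library than in any EpiLC library, at 8.30 CPM or more against 4.25 CPM or less for Id3 and at 5.33 CPM or more against 3.28 CPM or less for Id4.

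The wild-type lines therefore differed in how ligands and brake moved, and contrasts of the changes between stages tested this. The change of Bmp7 was 4.81 ± 0.26 higher on the log2 scale in PclWT than in J2WT (adjusted p = 1.65e-07), that of Bmp4 was 1.25 ± 0.31 higher (adjusted p = 0.00695) and that of Smad6 1.15 ± 0.19 higher (adjusted p = 0.000425). Id2 and Id3 fell further in PclWT, by -1.59 ± 0.26 (adjusted p = 0.000462) and -1.61 ± 0.41 (adjusted p = 0.0076). In all 5 of 10 genes passed this contrast, where 42.9% of 13523 genes tested passed it. Formative markers summed to 904.5 to 1088 CPM in PclWT EpiLCs against 3742 to 3819 CPM in J2WT EpiLCs. Of the 5 formative markers 4 passed this contrast as lower and none as higher, and their part in these differences was not tested. Lines, their source and their depth differ together between J2WT and PclWT and cannot be told apart.

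The same stage change was then followed in the lines that lack PRC2 accessory subunits. Id1, Id3 and Id4 were called lower in EpiLCs of all 5 lines, at log2 fold changes of -3.85 to -1.84 for Id1, -4.05 to -2.43 for Id3 and -5.17 to -1.60 for Id4. Bmp4 was called lower in 4 of the 5, QKO being the exception, and Id2 in 2 of the 5, PclWT and QKO. Id2 also passed as lower, just within 2-fold, in J2WT (-0.92) and TKO (-0.99), but did not pass in J2KO (-0.09). Called lower were 5 of 10 genes in J2KO (12.0% of genes tested), 4 in TKO (8.61%) and 4 in QKO (7.02%), and none was called higher (15.2%, 14.0% and 12.2% of genes tested in J2KO, TKO and QKO). Id1 and Id4 in J2KO, Id3 in TKO and Id2 in QKO averaged fewer than 15 reads in EpiLCs and entered the test through their ESC libraries.

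In J2KO, Id4 had the largest stage change of any gene and line among the 10, at 1.17, 0.364 and 0.711 CPM in EpiLCs against 28.3, 25.1 and 29.3 CPM in ESCs (log2 fold change -5.17 ± 0.15, adjusted p = 3e-23). Id2 was low at both stages, at 2.03, 1.03 and 1.75 CPM in J2KO EpiLCs against 1.54, 1.61 and 2.06 CPM in J2KO ESCs (-0.09 ± 0.25, adjusted p = 0.736), and the libraries overlapped. Bmp7 fell to 1.72, 1.82 and 1.94 CPM in J2KO EpiLCs, against 6.77, 7.74 and 7.63 CPM in J2KO ESCs (-1.99 ± 0.15, adjusted p = 4.19e-13). Compared with the stage change of J2WT, that of J2KO was 2.26 ± 0.30 higher for Bmp7 (adjusted p = 3.1e-07) and lower for Id4 (-1.18 ± 0.37, adjusted p = 0.00809). It was also higher for Id1 (1.00, adjusted p = 0.0127), Id2 (0.83, adjusted p = 0.0146) and Smad6 (0.67, adjusted p = 0.000304), and it passed for Smad1 (0.27, adjusted p = 0.0186) and Bmp4 (-0.42, adjusted p = 0.0185). With DESeq2 neither Smad1 (adjusted p = 0.0676) nor Bmp4 (adjusted p = 0.0529) passed, nor did Bmp4 without J2KO EpiLC replicate 3 or J2WT EpiLC replicate 2 (adjusted p = 0.0645 and 0.0548). The contrasts of Id1 and Id2 did not pass without J2KO EpiLC replicate 1 (0.76 and 0.62, adjusted p = 0.118 and 0.109), and that of Id4 did not pass without J2KO EpiLC replicate 2 or J2WT EpiLC replicate 2 (-0.84 and -0.86, adjusted p = 0.0534 and 0.093). Of the 10 genes 7 passed this contrast, where 54.0% of 13929 genes tested did.

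In QKO, Bmp4 was at 3.75, 4.64 and 3.33 CPM in EpiLCs against 3.13, 2.67 and 3.26 CPM in ESCs, the only line in which it did not pass (log2 fold change 0.35 ± 0.21, adjusted p = 0.131). Its change between stages was 1.75 ± 0.37 higher than in PclWT (adjusted p = 0.00802). Id4 was at 2.53, 3.28 and 2.57 CPM in QKO EpiLCs against 7.64, 9.28 and 8.58 CPM in QKO ESCs, a smaller fall than in PclWT by 1.87 ± 0.31 (adjusted p = 0.00179). Smad1 rose to 31.8 ± 1.25 CPM in QKO EpiLCs against 18 ± 0.74 CPM in QKO ESCs (0.83, adjusted p = 3.87e-09), and its change exceeded that of PclWT by 0.72 (adjusted p = 0.00175). The change of Smad6 was lower than in PclWT (-0.98, adjusted p = 0.00491). In this contrast 4 of 10 genes passed, where 15.8% of 12712 genes tested did, and 4 passed without QKO EpiLC replicate 2 as well. Id1 (1.62, adjusted p = 0.0854) and Id3 (1.18, adjusted p = 0.0832) did not pass. Both passed with DESeq2 (adjusted p = 0.0187 and 0.0171), with no count minimum (0.0042 and 0.0154), with all libraries of the line family (0.0346 and 0.0372) and without PclWT EpiLC replicate 1 (2.85, adjusted p = 0.00102, and 1.86, adjusted p = 0.000471).

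In TKO, Id2 was at 1.96, 1.96 and 1.84 CPM in EpiLCs against 3.93, 4.56 and 3.35 CPM in ESCs (log2 fold change -0.99 ± 0.22, adjusted p = 0.00068). Its fall was smaller than in PclWT by 1.5 ± 0.28 (adjusted p = 0.00417), from a lower level in ESCs. Bmp4 fell to 2.40, 2.27 and 2.98 CPM in TKO EpiLCs against 8.47, 7.82 and 8.48 CPM in TKO ESCs (-1.68 ± 0.17, adjusted p = 1.61e-07). Smad1 and Smad6 were higher in TKO EpiLCs (0.65 and 0.90, adjusted p = 3.97e-06 and 6.23e-06). Besides Id2 the contrast with PclWT passed for Smad1 (0.50, adjusted p = 0.0207), where 15.5% of 12825 genes tested passed. The Smad1 contrast did not pass without TKO EpiLC replicate 2, TKO ESC replicate 1 or 3 or PclWT ESC replicate 3 (0.44 to 0.50, adjusted p = 0.052 to 0.062), and without PclWT EpiLC replicate 1 it was Id1 (2.27, adjusted p = 0.00782) and Bmp7 (-0.46, adjusted p = 0.0441) that passed in addition.

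**Figure D4:**
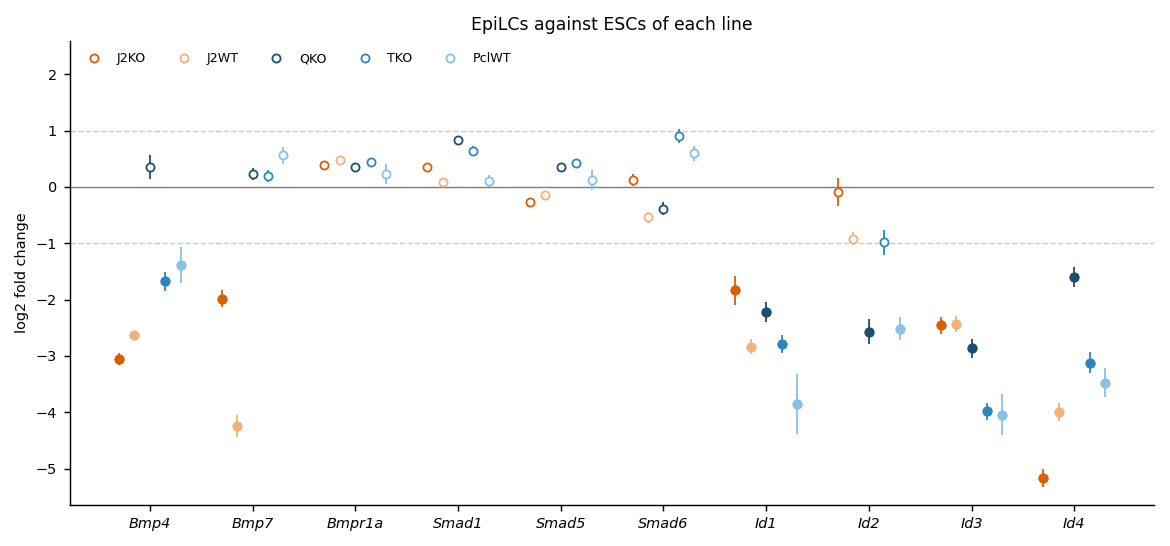
Log2 fold change of EpiLCs against ESCs (vertical axis) for the 10 genes in J2KO, J2WT, QKO, TKO and PclWT, as points with the SE from edgeR as bars. Filled points are called (adjusted p under 0.05 and beyond the dashed lines at 2-fold). Id1, Id3 and Id4 lie below -1 in all 5 lines, and Bmp7 is called in J2KO and J2WT alone.

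Loss of JARID2 was compared with its matched line at each stage. In ESCs, Id1 and Id2 fell in J2KO while Id4 rose by less than 2-fold. Id1 was at 2.67, 2.35 and 2.72 CPM in J2KO ESCs against 11.8, 14.0 and 14.3 CPM in J2WT ESCs (log2 fold change -2.38 ± 0.13, adjusted p = 1.41e-12). Id2 was at 1.54, 1.61 and 2.06 CPM in J2KO ESCs against 10.8, 10.2 and 10.8 CPM in J2WT ESCs (-2.62 ± 0.14, adjusted p = 9.79e-13). Id3 changed far less (-0.40, adjusted p = 0.00056), and Id4 went up to 28.3, 25.1 and 29.3 CPM against 17.1, 15.5 and 16.9 CPM in J2WT ESCs (0.73 ± 0.07, adjusted p = 1.95e-08). The Id genes of ESCs therefore split, with Id1 and Id2 lower and Id4 higher, and the libraries of J2KO and J2WT did not overlap for any of the 4. Of the upstream genes Bmp7 (-0.76, adjusted p = 3.2e-06), Smad6 (-0.64, adjusted p = 6.28e-06) and Bmp4 (-0.30, adjusted p = 0.000209) were lower and Smad5 was higher (0.26, adjusted p = 0.000102). Of the 10 genes 2 were called, both lower, where 6.53% of 13432 genes tested were called lower. Summed levels were 5418 to 5483 CPM in J2KO ESCs against 4479 to 4720 CPM in J2WT ESCs for naive markers, 155.3 to 159.4 CPM against 292.2 to 304.6 CPM for formative markers, 20.51 to 22.56 CPM against 14.13 to 16.06 CPM for 2 neuroectoderm markers, and 6.105 to 7.373 CPM against 11.29 to 13.23 CPM for 3 trophoblast markers. Primitive endoderm markers summed to 5.886 to 6.532 CPM in J2KO ESCs against 1.512 to 2.179 CPM in J2WT ESCs. Mesoderm markers summed to 0.9955 to 1.425 CPM against 3.676 to 4.661 CPM. Their part in the values above was not tested.

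In EpiLCs, Id1 was at 0.921, 0.486 and 0.711 CPM in J2KO against 2.01, 1.66 and 1.85 CPM in J2WT (log2 fold change -1.37 ± 0.28, adjusted p = 9.49e-05), and Id2 was at 2.03, 1.03 and 1.75 CPM in J2KO against 6.76, 4.97 and 4.79 CPM in J2WT (-1.78 ± 0.20, adjusted p = 1.3e-08). Both were thus lower in J2KO at either stage. Bmp7 was the reverse of ESCs, at 1.72, 1.82 and 1.94 CPM in J2KO EpiLCs against 0.670, 0.429 and 0.830 CPM in J2WT EpiLCs (1.51 ± 0.28, adjusted p = 3.35e-05). Bmp4 passed below 2-fold (-0.70, adjusted p = 0.000128). Called were 1 gene higher (6.09% of 13781 genes tested) and 2 lower (2.74%) of 9 tested, where Bmp7, with 31 reads in J2WT EpiLCs, entered the test through J2KO and Id1, with 34 reads in J2KO EpiLCs, through J2WT. The neuroectoderm markers summed to 6.922 to 7.366 CPM in J2KO EpiLCs against 23.4 to 25.28 CPM in J2WT EpiLCs, and the naive markers to 350.7 to 351.7 CPM against 236 to 250.9 CPM. Formative markers summed to 4712 to 4792 CPM in J2KO EpiLCs against 3742 to 3819 CPM in J2WT EpiLCs. Primitive endoderm markers summed to 3.88 to 4.542 CPM against 8.684 to 10.12 CPM. Their part in these values was not tested. Id4 was under the count minimum, with 36 reads in J2KO EpiLCs and 49 in J2WT EpiLCs, and a difference was not detectable at this depth.

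Loss of the Polycomb-like proteins was compared with PclWT. In TKO ESCs, Id4 was at 19.4, 16.4 and 15.1 CPM against 5.33, 7.06 and 6.68 CPM in PclWT ESCs (log2 fold change 1.38 ± 0.14, adjusted p = 4.89e-08), and Id2 was at 3.93, 4.56 and 3.35 CPM against 9.79, 7.70 and 7.90 CPM (-1.15 ± 0.17, adjusted p = 9.23e-06). Id1 was higher by just under 2-fold, at 14.6, 14.7 and 14.2 CPM in TKO ESCs against 9.31, 5.78 and 6.57 CPM in PclWT ESCs (0.95 ± 0.15, adjusted p = 1.31e-05). Both ligands went the same way, Bmp4 by 0.92 (adjusted p = 0.00037) and Bmp7 by 0.94 (adjusted p = 3.44e-06), while Smad1 was lower (-0.60, adjusted p = 5.83e-06). Called were 1 gene higher (6.54% of 12453 genes tested) and 1 lower (7.27%). Without PclWT ESC replicate 1, which had the most Bmp4 and Id1 of its group, 5 of the 10 were called, Bmp4 at 1.27, Id1 at 1.20 and Bmp7 at 1.01 among them. Markers of other cell types moved in the same libraries. The 2 neuroectoderm markers, led by Sox1, summed to 27.72 to 30.84 CPM in TKO ESCs against 0.428 to 1.113 CPM in PclWT ESCs, the 3 trophoblast markers to 40.72 to 41.93 CPM against 12.51 to 14.55 CPM, and the 4 primitive endoderm markers to 10.47 to 10.86 CPM against 3.117 to 4.173 CPM, with naive markers at 5461 to 5715 CPM against 3402 to 3587 CPM. Elf5, a trophoblast marker, had 1 read in TKO ESCs and 5 in PclWT ESCs. Formative markers went the other way, at 189.6 to 196.1 CPM in TKO ESCs against 308.7 to 331 CPM in PclWT ESCs. The part of these markers in the Id and ligand values was not tested.

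In TKO EpiLCs none of the 7 genes tested was called, where 14.1% of 12869 genes tested were. DESeq2 also called 0, and 3 had an unadjusted p under 0.05. Bmp7 alone passed, where 33.5% of genes tested did, at 15.8, 13.7 and 15 CPM in TKO EpiLCs against 8.86, 10.2 and 10.7 CPM in PclWT EpiLCs (log2 fold change 0.54 ± 0.13, adjusted p = 0.0204). It did not pass without PclWT EpiLC replicate 2 or any single TKO EpiLC library (0.50 to 0.60, adjusted p = 0.0581 to 0.0963). Id1, Id3 and Id4 were under the count minimum. Their reads were 24, 22 and 11 in TKO EpiLCs against 10, 3 and 1 in PclWT EpiLCs for Id1, and 24, 22 and 7 against 6, 4 and 6 for Id4, so that the libraries of both genes were clear of each other. With no count minimum both were called higher (1.98, adjusted p = 0.00804, and 1.69, adjusted p = 0.00849) and Id3 was not (0.24, adjusted p = 0.745).

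With JARID2 lost as well as the Polycomb-like proteins, Id4 and Bmp4 were called higher in EpiLCs. In QKO EpiLCs, Id4 was at 2.53, 3.28 and 2.57 CPM against 0.656, 0.409 and 0.601 CPM in PclWT EpiLCs (log2 fold change 2.26 ± 0.28, adjusted p = 0.0018), and Bmp4 was at 3.75, 4.64 and 3.33 CPM against 1.64, 1.74 and 1.40 CPM (1.24 ± 0.22, adjusted p = 0.00682). Called were 2 of 7 genes tested, both higher, where 6.12% of 12897 genes tested were called higher. Id4, with 84 reads in QKO EpiLCs and 16 in PclWT EpiLCs, entered the test through the QKO libraries, so that nothing is read from that count. Id4 was under the count minimum, and only Bmp4 was called, when any single QKO EpiLC library was left out (Bmp4 1.11, adjusted p = 0.0296, without QKO EpiLC replicate 2). Id1, also under that minimum, was at 3.14, 1.92 and 2.39 CPM in QKO EpiLCs against 1.09, 0.307 and 0.1 CPM in PclWT EpiLCs, with no overlap, and was called with no count minimum (2.31, adjusted p = 0.00213). Id2 and Id3 overlapped between the groups. Smad6 was lower (-0.50, adjusted p = 0.0386) but did not pass without PclWT EpiLC replicate 2 or any single QKO EpiLC library (-0.51 to -0.47, adjusted p = 0.094 to 0.141). The summed naive markers were 1180 to 1302 CPM in QKO EpiLCs and 532.6 to 595.2 CPM in TKO EpiLCs, against 225.4 to 237.2 CPM in PclWT EpiLCs, with 6 of 7 markers called higher in QKO and 4 of 7 in TKO. Formative markers were also higher in sum, at 2740 to 3113 CPM in QKO EpiLCs and 2124 to 2268 CPM in TKO EpiLCs. PclWT EpiLCs had 904.5 to 1088 CPM. In QKO 2 of the 4 formative markers tested were called higher and 2 lower, and in TKO 3 of 5 higher and none lower. The 4 primitive endoderm markers summed to 29.89 to 31.72 CPM in QKO EpiLCs and 47.35 to 56.31 CPM in TKO EpiLCs, against 1.601 to 2.456 CPM in PclWT EpiLCs, led by Gata6 and Gata4. The neuroectoderm markers summed to 47.71 to 55.86 CPM in QKO EpiLCs and 89.36 to 94.25 CPM in TKO EpiLCs, against 3.904 to 5.219 CPM in PclWT EpiLCs, led by Sox1. The part of these markers in the Id gene values was not tested.

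In QKO ESCs none of the 10 genes was called by edgeR or DESeq2, where 13.9% of 12302 genes tested were, and 7 had an unadjusted p under 0.05. Passed below 2-fold were Bmp7 (0.75, adjusted p = 6.49e-05), Id1 (0.66, adjusted p = 0.00144), Smad6 (0.49, adjusted p = 0.00129) and Id4 (0.40, adjusted p = 0.0251) as higher, and Id3 (-0.65, adjusted p = 2.11e-05) and Smad1 (-0.64, adjusted p = 3.54e-06) as lower. That of Id4 did not pass without QKO ESC replicate 2 or 3 or PclWT ESC replicate 1 (0.28 to 0.40, adjusted p = 0.059 to 0.121) or with DESeq2 (adjusted p = 0.0688). Neuroectoderm markers summed to 9.276 to 10.1 CPM in QKO ESCs against 0.428 to 1.113 CPM in PclWT ESCs. Primitive endoderm markers summed to 15.32 to 18.3 CPM against 3.117 to 4.173 CPM, and naive markers to 5188 to 5243 CPM against 3402 to 3587 CPM. Formative markers went the other way, at 228.8 to 250.6 CPM in QKO ESCs against 308.7 to 331 CPM in PclWT ESCs. The part of these lists was not tested.

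QKO and TKO were then compared directly, which asks what losing JARID2 adds where the Polycomb-like proteins are gone. In ESCs, Bmp4 was at 3.13, 2.67 and 3.26 CPM in QKO against 8.47, 7.82 and 8.48 CPM in TKO (log2 fold change -1.44 ± 0.17, adjusted p = 1.03e-06). It was the only gene called of the 10, where 3.13% of 12169 genes tested were called lower. Id4, at 7.64, 9.28 and 8.58 CPM in QKO ESCs against 19.4, 16.4 and 15.1 CPM in TKO ESCs, came to just within 2-fold (-0.999 ± 0.13, adjusted p = 2.68e-06), and it was past it without QKO ESC replicate 2 or 3 or TKO ESC replicate 2 or 3 (-1.07 to -1.01). Id3 was lower as well (-0.89, adjusted p = 3.36e-07), while Smad6 (0.88, adjusted p = 2.55e-05) and Id2 (0.81, adjusted p = 0.000981) were higher. In the same libraries neuroectoderm markers summed to 9.276 to 10.1 CPM in QKO ESCs against 27.72 to 30.84 CPM in TKO ESCs. Trophoblast markers summed to 14.99 to 17.17 CPM against 40.72 to 41.93 CPM, and primitive endoderm markers to 15.32 to 18.3 CPM against 10.47 to 10.86 CPM. In EpiLCs none of the 9 tested was called by edgeR or DESeq2, where 4.84% of 12762 genes tested were, and 3 had an unadjusted p under 0.05. Smad6 was lower in QKO (-0.41, adjusted p = 0.00248), and Bmp4 was higher (0.58, adjusted p = 0.0343) but not with DESeq2 (adjusted p = 0.121) or without QKO EpiLC replicate 1 or 2 or TKO EpiLC replicate 1 or 2 (0.46 to 0.61, adjusted p = 0.0554 to 0.126). Smad5 was lower by little (-0.14, adjusted p = 0.0242) and did not pass with DESeq2 (adjusted p = 0.188) or without QKO EpiLC replicate 3 or TKO EpiLC replicate 1 or 2 (-0.14 to -0.11, adjusted p = 0.0808 to 0.15). Naive markers summed to 1180 to 1302 CPM in QKO EpiLCs against 532.6 to 595.2 CPM in TKO EpiLCs, with 5 of 7 called higher. Primitive endoderm markers summed to 29.89 to 31.72 CPM against 47.35 to 56.31 CPM. The part of these lists at either stage was not tested.

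Whether the effect of losing JARID2 in EpiLCs differed by line was tested as the QKO to TKO difference minus the J2KO to J2WT difference. It was higher for Id1 (1.65 ± 0.37, adjusted p = 0.000423), Bmp4 (1.32 ± 0.26, adjusted p = 8e-05) and Id2 (1.03 ± 0.40, adjusted p = 0.0327) and lower for Bmp7 (-1.64 ± 0.29, adjusted p = 2.6e-05), Smad6 (-0.41 ± 0.15, adjusted p = 0.0214) and Smad5 (-0.26 ± 0.07, adjusted p = 0.00209). The Id2 value did not pass with DESeq2 (adjusted p = 0.0501) or without QKO EpiLC replicate 2 or 3, TKO EpiLC replicate 1, J2KO EpiLC replicate 2 or J2WT EpiLC replicate 1 (0.78 to 1.04, adjusted p = 0.0501 to 0.107). The Smad6 value did not pass with DESeq2 (adjusted p = 0.0533) or without TKO EpiLC replicate 3, J2KO EpiLC replicate 3 or J2WT EpiLC replicate 1 or 2 (-0.38 to -0.35, adjusted p = 0.0516 to 0.0668), and that of Smad5 did not with all libraries of both families in the fit (adjusted p = 0.117). Of 10 genes 6 passed, where 54.2% of 13539 genes tested did, a share near that background, and line and depth differ together with the presence of the Polycomb-like proteins.

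Loss of canonical PRC1 was compared in EpiLCs alone. Id1, Id3 and Id4 were higher in Pcgf2/4 KO EpiLCs than in WT EpiLCs and so was Bmp4, whereas Id2 was lower. Id1 was at 3.97, 3.88 and 2.88 CPM in Pcgf2/4 KO against 0.647, 0.782 and 0.677 CPM in WT (log2 fold change 2.35 ± 0.28, adjusted p = 4.21e-08). Id3 was at 4.25, 4.17 and 2.98 CPM against 1.76, 1.76 and 2.03 CPM (1.05 ± 0.22, adjusted p = 0.000215). Id4 was at 2.36, 2.42 and 1.54 CPM against 1.29, 0.685 and 0.774 CPM (1.19 ± 0.31, adjusted p = 0.0019). The libraries of the groups did not overlap for any of these, and replicate 3 was the lowest Pcgf2/4 KO library in each.

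Id2 ran opposite, at 3.40, 1.94 and 1.92 CPM in Pcgf2/4 KO EpiLCs against 5.27, 6.45 and 6.00 CPM in WT EpiLCs (-1.26 ± 0.20, adjusted p = 5.14e-06). Bmp4 was at 11.9, 11.1 and 8.27 CPM against 5.55, 4.21 and 5.23 CPM (1.07 ± 0.15, adjusted p = 7.47e-07), the highest Bmp4 of any EpiLC group. Smad5 (0.24, adjusted p = 0.00269) and Smad6 (0.35, adjusted p = 0.012) passed below 2-fold, Smad6 not without Pcgf2/4 KO replicate 2 or WT replicate 2 (0.31 and 0.27, adjusted p = 0.052 and 0.0848), while Bmpr1a (-0.01, adjusted p = 0.896) and Smad1 (-0.04, adjusted p = 0.708) did not pass. Of the 10 genes 4 were called higher and 1 lower, where 1.91% of 12754 genes tested were called higher and 3.92% lower. Id1, with 112 reads in Pcgf2/4 KO EpiLCs and 22 in WT EpiLCs, and Id4, with 66 reads in Pcgf2/4 KO EpiLCs and 29 in WT EpiLCs, entered the test through the Pcgf2/4 KO libraries, so that nothing is read from that count either. The count was 2 without Pcgf2/4 KO replicate 1 and 3 without replicate 2. In those, Id4 was under the count minimum, Id3 came to 0.97 and 0.98 and Bmp4, without replicate 1, to 0.97, just within 2-fold. Summed naive markers were 569.7 to 628.7 CPM in Pcgf2/4 KO EpiLCs against 279.3 to 290.4 CPM in WT EpiLCs, with 6 of 7 markers called higher. The primitive endoderm markers summed to 14.99 to 16.83 CPM in Pcgf2/4 KO EpiLCs against 3.581 to 4.01 CPM in WT EpiLCs, and the neuroectoderm markers to 11.25 to 11.93 CPM against 28.16 to 31.62 CPM. Formative markers were lower in sum, at 2740 to 2809 CPM in Pcgf2/4 KO EpiLCs against 4014 to 4031 CPM in WT EpiLCs, with 1 of 5 called lower. The 4 fibroblast markers summed to 3.12 to 4.998 CPM against 15.35 to 16.06 CPM. The part of these lists in the Id gene values was not tested.

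**Figure D5:**
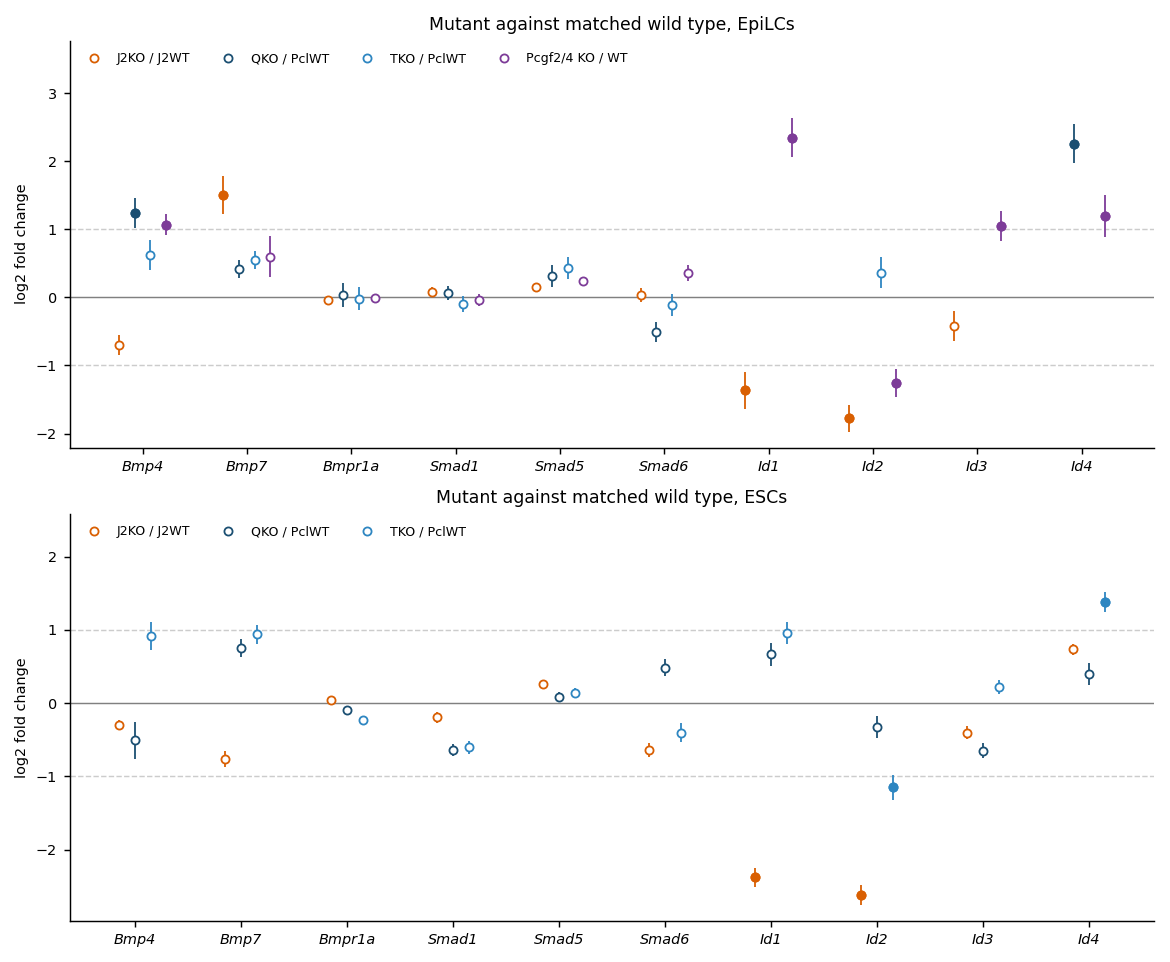
Log2 fold change of each mutant against its matched wild type (vertical axis) for the 10 genes, in EpiLCs (upper panel) and ESCs (lower panel), as points with the SE from edgeR as bars. Filled points are called, and genes under the count minimum have no point. Id2 lies below -1 in J2KO at both stages, in TKO ESCs and in Pcgf2/4 KO EpiLCs, and Bmpr1a lies between -0.22 and 0.045 throughout.

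Over the 12 groups the Id genes other than Id2 were ordered largely by stage. Id3 was highest in TKO ESCs (24.6 CPM), followed by ESCs of PclWT (20.5 CPM), QKO (13.3 CPM), J2WT (11.8 CPM) and J2KO (8.95 CPM), each clear of its neighbour, then Pcgf2/4 KO EpiLCs (3.80 CPM), also clear of its neighbours. Below them came the remaining 6 EpiLC groups, from J2WT (2.15 CPM) to PclWT (1.23 CPM), each overlapping the next. Id4 was highest in J2KO ESCs (27.6 CPM), then in ESCs of TKO (16.9 CPM) and J2WT (16.5 CPM), which overlapped, QKO (8.50 CPM) and PclWT (6.36 CPM), then in EpiLCs of QKO (2.79 CPM) and Pcgf2/4 KO (2.11 CPM), and the remaining EpiLC groups overlapped their neighbours down to PclWT (0.555 CPM). Id1 ran from ESCs of TKO (14.5 CPM), J2WT (13.4 CPM) and QKO (11.8 CPM), which overlapped in turn, through PclWT ESCs (7.22 CPM) and Pcgf2/4 KO EpiLCs (3.58 CPM), which stood above J2KO ESCs (2.58 CPM), to PclWT EpiLCs (0.5 CPM). Id2 was highest in J2WT ESCs (10.6 CPM) and lowest in QKO EpiLCs (1.14 CPM), and only 2 of its 11 neighbouring pairs of groups were clear of each other.

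The ligands did not share that order. Bmp4 was highest in J2WT ESCs (32 CPM) and J2KO ESCs (26.2 CPM), then in Pcgf2/4 KO EpiLCs (10.4 CPM) and TKO ESCs (8.26 CPM), which overlapped, and was lowest in PclWT EpiLCs (1.59 CPM). Bmp7 was highest in TKO EpiLCs (14.9 CPM), where the first 5 groups overlapped in turn down to QKO ESCs (11.7 CPM), stood at 9.93 CPM in PclWT EpiLCs, and dropped between PclWT ESCs (6.79 CPM) and Pcgf2/4 KO EpiLCs (2.02 CPM) to J2WT EpiLCs (0.643 CPM). The highest group mean was 49.6 times the lowest for Id4, 29.0 for Id1, 23.1 for Bmp7, 20.1 for Bmp4, 19.9 for Id3 and 9.28 for Id2, but 2.38 for Smad6, 2.12 for Smad5, 2.00 for Smad1 and 1.40 for Bmpr1a. Overlapping genes added few reads: Gm15222, antisense to Bmp4, had 238 reads over all libraries against 4323 for Bmp4, and the others that overlap a member had 1 to 70.

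As a description over 12 group means of log2 CPM, which share lines and controls, Id1 and Id3 had a Pearson r of 0.89, Id3 and Id4 0.87, and Id1 and Id4 0.82. Bmp7 was most like Smad5 among the 10 (0.80), and Bmpr1a ran opposite to Id4 (-0.91) and Id3 (-0.88). Among 12280 genes those most like each member were Cnn3 (0.95) and Ptges (0.95) for Id1, Dancr (0.90) and Cryab (0.87) for Id2, Chmp4c (0.98) and Pcolce (0.98) for Id3, and Mitf (0.99) and Fzd5 (0.97) for Id4. They were Idh3g (0.96) and Slc38a7 (0.94) for Bmp4, Nacc2 (0.96) and Kit (0.94) for Bmp7, S1pr2 (0.99) and Col6a6 (0.98) for Bmpr1a, Ptpra (0.94) and Stra8 (0.93) for Smad1, Dnm1 (0.95) and Bves (0.95) for Smad5, and Slc27a3 (0.87) and Sidt2 (0.83) for Smad6.

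Beyond these 10, 55 other genes of the pathway were listed: ligands, receptors and co-receptors, signal carriers and brakes, secreted antagonists, further targets and the E-protein partners of ID proteins. Between stages 5 of 36 tested were called higher and 10 lower in J2WT (15.4% and 14.8% of all genes tested). The counts were 4 and 7 of 33 in PclWT (9.19% and 6.20%) and 7 and 10 of 36 in J2KO (15.2% and 12.0%). They were 6 and 7 of 31 in TKO (14.0% and 8.61%) and 3 and 9 of 32 in QKO (12.2% and 7.02%). Their median log2 fold change was 0.09 in J2WT, 0.12 in PclWT, -0.18 in J2KO, 0.33 in TKO and 0.31 in QKO, where the median of all genes tested was within 0.02 of 0.

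Of 8 further transcription factor targets listed, 4 were called lower (14.8% of all genes tested) and 1 higher (15.4%) of 6 tested in J2WT. In PclWT 4 of 5 were called lower (6.20%). In J2KO 4 were called lower (12.0%) and 1 higher (15.2%) of 6. In TKO 2 of 3 (8.61%) and in QKO 3 of 4 (7.02%) were called lower. Gata2, a target in many lineages, was at 0.146 ± 0.073 CPM in J2WT EpiLCs against 5.53 ± 0.303 CPM in J2WT ESCs (log2 fold change -5.16, adjusted p = 4.48e-14), and was called lower in all 5 lines. Msx2, a homeobox target, was at 0.0832 ± 0.0721 CPM in J2WT EpiLCs against 5.40 ± 0.146 CPM in J2WT ESCs (-5.88, adjusted p = 6.24e-14), and Tfap2c was at 2.13 ± 0.198 CPM in EpiLCs and 30.6 ± 0.31 CPM in ESCs (-3.82, adjusted p = 2.22e-20). Msx1 went the other way in J2WT, at 1.70 ± 0.0967 CPM in EpiLCs and 0.295 ± 0.0953 CPM in ESCs (2.51, adjusted p = 2.07e-07). Gata2 and Msx2, with 7 and 4 reads in J2WT EpiLCs, entered the test through the ESC libraries. Msx1, with 14 reads in J2WT ESCs, entered it through the EpiLC libraries. Such genes had to differ, so that nothing is read from the counts of targets called. Skil, a co-repressor that binds SMADs, was called higher in EpiLCs of all 5 lines, at 582 ± 6.05 CPM in J2WT EpiLCs against 54.4 ± 0.51 CPM in J2WT ESCs (3.44, adjusted p = 1.84e-27).

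Among ligands and antagonists, Bmp6 was called higher in EpiLCs of every line but PclWT, at 9.95 ± 0.765 CPM in TKO EpiLCs and 1.08 ± 0.072 CPM in TKO ESCs (3.22, adjusted p = 2.26e-10). Fst, which encodes follistatin, a secreted antagonist of activin and some BMPs, was called lower in EpiLCs of all 5 lines, at 1.63 ± 0.456 CPM in TKO EpiLCs and 24.0 ± 2.82 CPM in TKO ESCs (-3.88, adjusted p = 3.99e-12). Bmpr1b, a type I receptor like Bmpr1a, was at 3.15 ± 0.383 CPM in TKO EpiLCs and 0.242 ± 0.151 CPM in TKO ESCs (3.64, adjusted p = 2.04e-07) and was also called higher in QKO and PclWT. Bmp6 and Bmpr1b, with 31 and 7 reads in TKO ESCs, entered the TKO test through the EpiLC libraries. Rgma, a co-receptor, was called lower in all 5 lines (-2.96 in J2WT, adjusted p = 8.51e-17).

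Between genotypes, called higher and lower were 1 and 4 of 34 in J2KO ESCs (6.82% and 6.53% of all genes tested), 2 and 0 of 32 in J2KO EpiLCs (6.09% and 2.74%), 6 and 4 of 32 in TKO ESCs (6.54% and 7.27%), 4 and 2 of 31 in TKO EpiLCs (6.91% and 7.16%), 1 and 3 of 31 in QKO ESCs (5.80% and 8.06%), 1 and 2 of 31 in QKO EpiLCs (6.12% and 7.58%), and 2 and 2 of 30 in Pcgf2/4 KO EpiLCs (1.91% and 3.92%). Their median log2 fold change was 0.09 in J2KO ESCs, 0.05 in J2KO EpiLCs, -0.10 in TKO ESCs, 0.12 in TKO EpiLCs, -0.03 in QKO ESCs, -0.05 in QKO EpiLCs and 0.02 in Pcgf2/4 KO EpiLCs, where the median of all genes tested was -0.033 to 0.003. In J2KO ESCs, Gata3 (-1.90, adjusted p = 5.29e-09), Gata2 (-1.66, adjusted p = 8.07e-09) and Tfap2c (-1.21, adjusted p = 4.97e-12) were called lower, as were Id1 and Id2. These were 3 of the 5 further targets tested there, of which 1 other passed as higher below 2-fold. Fst was at 24.0 ± 2.82 CPM in TKO ESCs against 5.62 ± 1.03 CPM in PclWT ESCs (2.04, adjusted p = 1.82e-10), and at 5.42 ± 0.533 CPM in QKO ESCs it was not higher by that rule.

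Hey1, a Notch and BMP target, was lower in TKO and QKO at both stages, at 0.735 ± 0.296 CPM in TKO EpiLCs and 0.875 ± 0.253 CPM in QKO EpiLCs against 3.14 ± 0.818 CPM in PclWT EpiLCs (-2.14, adjusted p = 0.00551, and -1.85, adjusted p = 0.00659). Smad7, an inhibitory SMAD like Smad6, was at 99.2 ± 4.97 CPM in QKO EpiLCs and 37.9 ± 2.14 CPM in PclWT EpiLCs (1.35, adjusted p = 0.000318). In Pcgf2/4 KO EpiLCs, Tfap2c was at 8.47 ± 1.01 CPM against 3.48 ± 0.181 CPM in WT EpiLCs (1.30, adjusted p = 5.85e-08), while the ligand gene Bmp8b (-1.82, adjusted p = 2.33e-05) and the antagonist gene Sost (-1.42, adjusted p = 0.000305) were lower. Hey1, with 20 reads in TKO EpiLCs and 27 in QKO EpiLCs, entered those tests through the PclWT libraries. Bmp8b and Sost, with 21 and 26 reads in Pcgf2/4 KO EpiLCs, entered theirs through the WT libraries.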

How the data were processed

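Poly(A) RNA of 36 libraries was sequenced from NEBNext libraries that do not keep strand. Per the study's methods the authors used STAR with the GRCm38 build, and the deposited tables hold raw, unstranded read counts for 55401 genes. Reads outside a single gene (23.22% to 30.24% per library) were left out of library sizes. Precision follows from counts in genes of 6784578 to 18026492.

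Groups came from the sample labels. Each comparison was fitted on its own 6 libraries, and contrasts of changes on their 4 groups, with edgeR 4.0.16 (TMM, quasi-likelihood F-test, two-sided) in R 4.3.3, for genes whose normalized counts averaged 15 or more. P-values were adjusted over all genes tested by Benjamini-Hochberg. The SE is the log2 fold change divided by the root of F. Comparisons were called at an adjusted p under 0.05 and a fold over 2, contrasts at the adjusted p alone. CPM used TMM factors over 36 libraries, and RPKM the summed exon length. On simulated data for the J2WT stage comparison, 100% of genes changed by 1.5 or 2.5 on the log2 scale were called over 13872 genes, and for Pcgf2/4 KO 98% and 100% over 12763 genes. The changed genes were drawn only from genes with mean reads above the count minimum. The spread between replicates was set alike for all genes. Recovery of genes with few reads, such as the Id genes in EpiLCs, was not simulated.

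The members and gene lists were chosen with earlier results of these data known. All 10 members are named. Of the other pathway genes, up to 5 per direction and comparison could be named, those of largest fold change among called genes whose libraries do not overlap. For likeness, 2 genes per member are named by Pearson r. Replicate numbers were checked for pairing: PclWT EpiLC and ESC libraries of the same number deviated together (r of 0.39, 0.192 and 0.165 for the 3 numbers, all over the limit of 0.1, from the data and not the labels, although libraries of different numbers reached 0.204, above all but the first), and no other comparison met it. Alternatives were RLE scaling, no count minimum, DESeq2 1.42.0, the replicate number as a block, 1 fit per line family, and leaving out each library.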

Additional observations from a re-analysis of the deposited data

Results flagged for a closer look

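Effects that differed between lines or genotypes, by a test of the difference in edgeR over 4 groups, are listed here by gene with the difference on the log2 scale. For the change between EpiLCs and ESCs, PclWT differed from J2WT in Bmp4 (1.255), Bmp7 (4.81), Smad6 (1.148), Id2 (-1.592) and Id3 (-1.613). J2KO differed from J2WT in Bmp4 (-0.421), Bmp7 (2.257), Smad1 (0.265), Smad6 (0.665), Id1 (0.998), Id2 (0.83) and Id4 (-1.175). TKO differed from PclWT in Smad1 (0.504) and Id2 (1.501), and QKO differed from PclWT in Bmp4 (1.748), Smad1 (0.72), Smad6 (-0.98) and Id4 (1.868), where both contrasts share the PclWT libraries.

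For the effect of losing JARID2 in EpiLCs, the QKO to TKO difference minus the J2KO to J2WT difference was 1.317 for Bmp4, -1.64 for Bmp7, -0.264 for Smad5, -0.412 for Smad6, 1.653 for Id1 and 1.027 for Id2. Adjusted p-values ranged from 1.65e-07 to 0.0327 over these 24 values. The change of Bmp7 between stages, on the log2 scale, was -1.99 in J2KO, -4.24 in J2WT, 0.23 in QKO, 0.19 in TKO and 0.56 in PclWT, where the values of QKO and TKO did not pass (adjusted p = 0.0679 and 0.109).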

How the results depend on the processing

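Of 182 results on single members, 114 passed, and none of these changed direction under any alternative run. Over 2284 alternative values, 2124 kept their direction and side of the threshold, 98 no longer passed, 32 newly passed and 30 changed sign. With no count minimum, genes called numbered 6836 between stages in J2WT, 6334 in J2KO, 4703 in TKO and 4063 in QKO, then 3109 in J2KO ESCs, 2221 in J2KO EpiLCs, 2971 in TKO ESCs, 2973 in QKO ESCs, 1042 for QKO against TKO in ESCs, 1085 in EpiLCs and 1446 in Pcgf2/4 KO, against 4198, 3766, 2874, 2402, 1793, 1216, 1719, 1704, 551, 618 and 744 with it, where more genes were tested. Members called then numbered 2 in TKO EpiLCs against PclWT EpiLCs (0 with the minimum), 2 for QKO against TKO in ESCs (1 with it) and 1 in the stage contrast of TKO with PclWT (2 with it), and Bmpr1a in Pcgf2/4 KO came to 0.002. Fitted with all libraries of the line family, 2 members were called in TKO EpiLCs, and the contrast of JARID2 loss passed for 4877 genes against 7339. That fit was not run for the Pcgf2/4 set, which has no further groups. The cause of these shifts was not tested.

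Leaving out each library in turn, members called ranged from 2 to 5 in TKO ESCs (5 without PclWT ESC replicate 1), 1 to 3 in QKO EpiLCs (3 without PclWT EpiLC replicate 1 or 3), 1 to 3 for QKO against TKO in ESCs (3 without TKO ESC replicate 2), 2 to 5 in Pcgf2/4 KO EpiLCs and 1 to 4 in the stage contrast of TKO with PclWT (4 without PclWT EpiLC replicate 1). Genes passing ranged from 5049 to 8815 in the stage contrast of PclWT with J2WT, 1414 to 4608 in that of TKO with PclWT and 1496 to 4719 in that of QKO with PclWT, with each highest count reached without PclWT EpiLC replicate 1. Values near 0 changed sign: Id2 between J2KO stages (-0.289 to 0.162); Bmpr1a in J2KO ESCs (-0.013 to 0.068), TKO EpiLCs (-0.196 to 0.092), QKO EpiLCs (-0.134 to 0.145), QKO against TKO in EpiLCs (-0.003 to 0.059) and Pcgf2/4 KO (-0.018 to 0.007); Smad6 in J2KO EpiLCs (-0.036 to 0.131); Smad1 in Pcgf2/4 KO (-0.113 to 0.045); and the stage contrasts of Id3 for J2KO with J2WT (-0.171 to 0.195) and TKO with PclWT (-0.356 to 0.721), and of Bmpr1a (-0.046 to 0.248) and Id2 (-0.181 to 0.051) for QKO with PclWT.

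With the replicate number as a block, the PclWT stage change of Bmp7, the comparison whose numbers pair, was 0.561 and no longer passed. Elsewhere the libraries share only a number: with the block, Bmp7 in TKO EpiLCs (0.544, adjusted p = 0.0705), Smad6 in QKO EpiLCs (-0.493, adjusted p = 0.068), and Bmp4 (0.59, adjusted p = 0.0522) and Smad5 (-0.133, adjusted p = 0.0563) for QKO against TKO in EpiLCs no longer passed, Smad5 in TKO ESCs newly passed (0.144, adjusted p = 0.0399), and Bmpr1a in TKO EpiLCs came to 0.005. Depth limits, among others, Id1, Id2, Id3 and Id4 in PclWT, TKO and QKO EpiLCs, at 1 to 31 reads per library. It also limits Id1 and Id4 in J2KO EpiLCs, at 6 to 19, and in WT EpiLCs, at 7 to 14, and Bmp7 in J2WT EpiLCs, at 7 to 13.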
